A study of Mus musculus with 6 samples.

Results

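Transcripts of 9 guidance genes were followed in mouse hearts that lack a large regulatory interval upstream of Hand2: the ligand genes Slit1, Slit2 and Slit3, the receptor genes Robo1, Robo2 and Robo4, the netrin genes Ntn1 and Ntn4, and the netrin receptor gene Unc5b. All 9 were found by symbol among the 15330 genes of the deposited table, and all 9 passed the filter on low values (a mean of at least 10). The set was chosen from results of the comparison between deletion and wild-type hearts described here, in which Slit1 and Robo4 stood out, so the differences of the 9 genes are given as a description, with standard errors and without p-values. RNA came from micro-dissected hearts of stage-matched embryos at embryonic day 9.5. One group was wild-type (3 libraries) and the other was H2-URI d/d (3 libraries), carrying on both chromosomes an allele from which CRISPR-Cas9 had cut 373 kb of the interval before Hand2, a basic helix-loop-helix transcription factor gene of the early heart. Replicates 1 and 2 of either group bear the label F and replicate 3 the label M, taken here as female and male, and all are of batch number 1. Whether 1 heart or a pool went into each library, and how many founder lines carried the deletion, is not given in the sources used here, so errors measure the spread between these libraries, which may be technical. The question was which other transcripts differ in the heart once this interval is gone.

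Slits are large secreted ligands that bind Roundabout (Robo) receptors and repel growing axons and migrating cells, with heparan sulfate proteoglycans on the cell surface as co-receptors. Netrins are laminin-related secreted proteins that attract through Dcc and neogenin and repel through receptors of the Unc5 family. Outside the nervous system, Slit and Robo genes act in heart tube, septum and valve formation, while Robo4 and Unc5b are known as receptors of endothelial cells, where their extracellular parts can bind each other.

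Values are normalized counts, that is, reads per gene divided by a size factor of the library, and the libraries held 25583210 to 32043595 reads in genes. Hand2 itself stood at 3911, 3789 and 4407 normalized counts in the wild-type libraries (replicates 1, 2 and 3, the order used throughout) and at 1025, 1158 and 1163 in the deletion libraries. Columns were given to samples by the code in each sample's title, but 4 of the 6 deposited files are recorded under a sample of the other group. Under that record the log2 fold change was 0.08 for Slit1 and −0.23 for Robo4, so every difference below rests on the codes. Over all genes, a fit with limma at an adjusted p under 0.05 called 237 genes higher (1.55% of 15330) and 230 lower (1.5%) in the deletion, 3.05% in all. Log2 values were also corrected in each library for transcript length and base composition, for the 14849 genes with a known length. Among these, limma then called 186 higher and 297 lower. Among the 9 guidance genes this threshold was passed by 2, Slit1 and Robo4, both higher in the deletion. The values of the groups did not overlap for 6 of the 9, all higher in the deletion, against 27.4% of all genes in either direction. Nothing is read from these counts, since this comparison chose the genes.

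Of the ligands, Slit1 was higher in the deletion and Slit2 and Slit3 stayed near their wild-type levels. Slit1, a Slit best known from the nervous system, was counted at 18.2, 12.5 and 1.83 in the wild-type libraries and at 67.6, 68.7 and 60.5 in the deletion libraries. Every deletion library lay well above every wild-type library, and wild-type replicate 3 was almost without Slit1. The wild-type mean was 10.8 ± 8.29 and the deletion mean 65.6 ± 4.46 (SD, n = 3). The log2 fold change was 2.88 (SE 0.60) on the scale of log2(normalized count + 1). This wild-type mean lay below 15.4, the lowest mean over the 6 libraries of any gene listed. Slit1 thus reached that level only with its deletion libraries.

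These Slit1 levels rest on few reads: 16, 14 and 2 in the wild-type libraries and 64, 74 and 56 in the deletion libraries. From the reads summed over each group and corrected for depth, the deletion held 6.37 times as much Slit1, with an exact 95% counting interval of 4.36 to 9.57, which covers counting error only, since PCR copies are not independent molecules. The spread was unequal: the SD was 76.6% of the mean in wild-type and 6.79% in deletion hearts. Slit1 did not pass the threshold without any 1 of the 3 deletion libraries. Its log2 fold change was then 2.86, 2.85 and 2.94 (without replicates 1, 2 and 3). In these fits limma called 138, 103 and 165 genes in all, against 467 with all libraries. With each of the 6 libraries left out, the log2 fold change of Slit1 lay between 2.05 (without wild-type replicate 3) and 3.43 (without wild-type replicate 1). In bulk tissue, more cells that carry a transcript and more transcript in each cell cannot be told apart.

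Slit2, a ligand of Robo1 and Robo2, had 970, 886 and 1031 normalized counts in wild-type and 826, 892 and 834 in deletion libraries. The groups overlapped, since the second deletion library exceeded the second wild-type library. The log2 fold change was −0.18 (SE 0.08). Slit3, a Slit needed for formation of the diaphragm, had 2083, 2010 and 1982 normalized counts in wild-type and 2085, 2094 and 2279 in deletion libraries. The highest wild-type and the lowest deletion library were nearly level, and the log2 fold change was 0.09 (SE 0.06), which turned to −0.04 (SE 0.06) with the correction for transcript length and base composition.

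Per kilobase of the longest annotated transcript, the summed Slit level was 486 ± 12.0 normalized counts in wild-type hearts and 509 ± 19.2 in the deletion (SD, n = 3). Slit3 made up 79.7 ± 1.17% of it in wild-type and 80.9 ± 1.23% in deletion hearts. Slit1 made up 0.39 ± 0.294% and 2.28 ± 0.232%, and Slit2 19.9 ± 1.40% and 16.8 ± 1.03%. With the summed length of all annotated exons in place of the longest transcript, an alternative added after the values were seen, Slit2 made up 10.1 ± 0.807% and 8.39 ± 0.562% and Slit1 0.48 ± 0.365% and 2.78 ± 0.296%. Slit1 was the scarcest Slit transcript in both groups with either length.

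**Figure D1:**
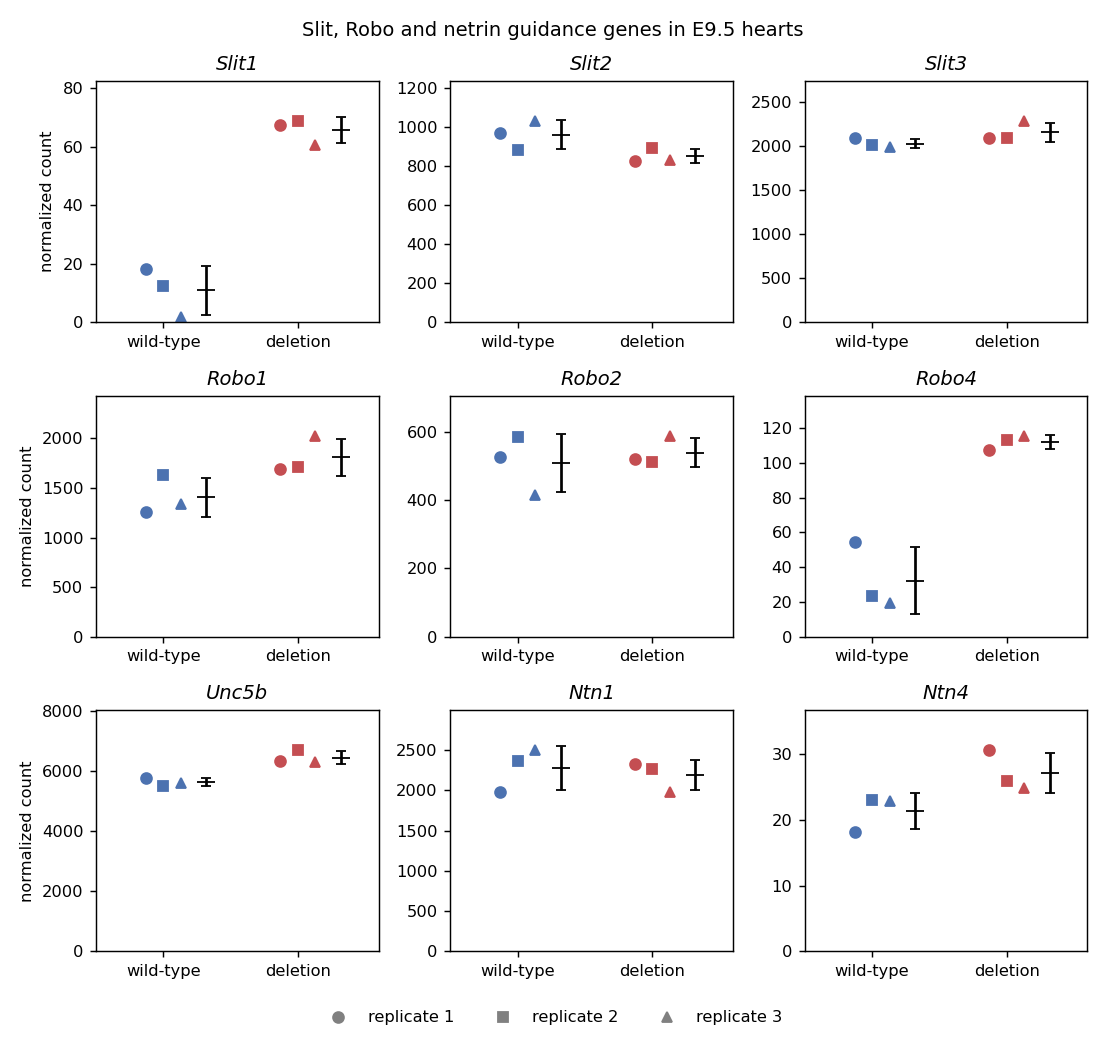
Normalized counts (vertical axes, each from 0) of the 9 guidance genes in wild-type (blue) and deletion (red) hearts, 1 point per library, with the group mean and SD (n = 3) in black. Slit1 and Robo4 are set apart, with the lowest deletion values at 60.5 and 108 and the highest wild-type values at 18.2 and 54.5.

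Among the receptors, Robo4 was higher in the deletion, Robo1 less so, and Robo2 overlapped. Robo4, a short Robo of endothelial cells, was counted at 54.5, 23.1 and 19.2 in the wild-type libraries and at 108, 113 and 116 in the deletion libraries. The deletion libraries lay close together, and the first wild-type library was more than 2 times as high as the other two. The means were 32.3 ± 19.3 and 112 ± 4.06 (SD, n = 3), with a log2 fold change of 1.91 (SE 0.34). Summed over the groups there were 95 and 331 reads, a ratio of 3.66 with an exact 95% counting interval of 2.90 to 4.65. Without any 1 of the deletion libraries, or without wild-type replicate 3, Robo4 did not pass the threshold. In these fits limma also called fewer genes in all. Without deletion replicates 1, 2 and 3 the log2 fold change of Robo4 was 1.94, 1.91 and 1.89. With each library left out, its log2 fold change lay between 1.63 (without wild-type replicate 3) and 2.36 (without wild-type replicate 1).

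Robo1, which carries Slit signals in heart and septum, had 1259, 1629 and 1333 normalized counts in wild-type and 1687, 1709 and 2026 in deletion libraries. The groups did not overlap, but the second wild-type and the first deletion library differed by less than the SD of either group. The log2 fold change was 0.36 (SE 0.11), and 0.30 (SE 0.09) with the length and composition correction. It did not pass the threshold in limma with all libraries or in edgeR, but did without wild-type replicate 2, where it was 0.47, and in DESeq2. Robo2, a receptor for the same Slits, had 526, 583 and 415 normalized counts in wild-type and 518, 510 and 587 in deletion libraries. These ranges overlapped, and the log2 fold change was 0.10 (SE 0.13).

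The summed level of the 3 Robo genes was 252 ± 31.8 normalized counts per kb in wild-type hearts, against 324 ± 30.6 in the deletion (SD, n = 3). Robo1 held 73.9 ± 3.79% of it in wild-type and 73.6 ± 0.748% in deletion hearts. Robo4 held 2.64 ± 1.70% and 7.01 ± 0.477%, and Robo2 23.4 ± 2.26% and 19.3 ± 0.387%. On the length of all annotated exons, Robo4 held 5.09 ± 3.17% and 13.1 ± 0.829%, so its share depends on the length used, and the summed Robo level was 121 ± 14.6 and 162 ± 14.6 normalized counts per kb.

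Unc5b, a netrin receptor of endothelium and of arterial vessels, was the most abundant of the 9. It had 5776, 5513 and 5618 normalized counts in wild-type and 6334, 6698 and 6323 in deletion libraries, without overlap. The log2 fold change of 0.19 (SE 0.06) did not pass the threshold in limma or edgeR, but did in DESeq2. It was 0.21 (SE 0.06) with equal medians and 0.24 (SE 0.06) after quantile normalization, but 0.04 (SE 0.06) with the length and composition correction.

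Of the netrins, Ntn1, the classical floor plate netrin, had 1974, 2358 and 2496 normalized counts in wild-type and 2333, 2267 and 1982 in deletion libraries. The deletion range lay inside the wild-type range, and the log2 fold change was −0.05 (SE 0.10). Ntn4, a netrin of basement membranes, was close to the bottom of the table, with 18.2, 23.1 and 22.9 normalized counts in wild-type and 30.6, 26.0 and 24.8 in deletion libraries. The lowest deletion library exceeded the highest wild-type library by less than the SD of either group. The log2 fold change was 0.33 (SE 0.26), and the exact 95% counting interval of the ratio, 0.895 to 1.76, included 1. A predicted gene on the opposite strand, Gm8580, overlaps Ntn4 and is also in the table, and the strand setting of the counting is not given in the sources used here, so reads of these genes may not be separated.

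**Figure D2:**
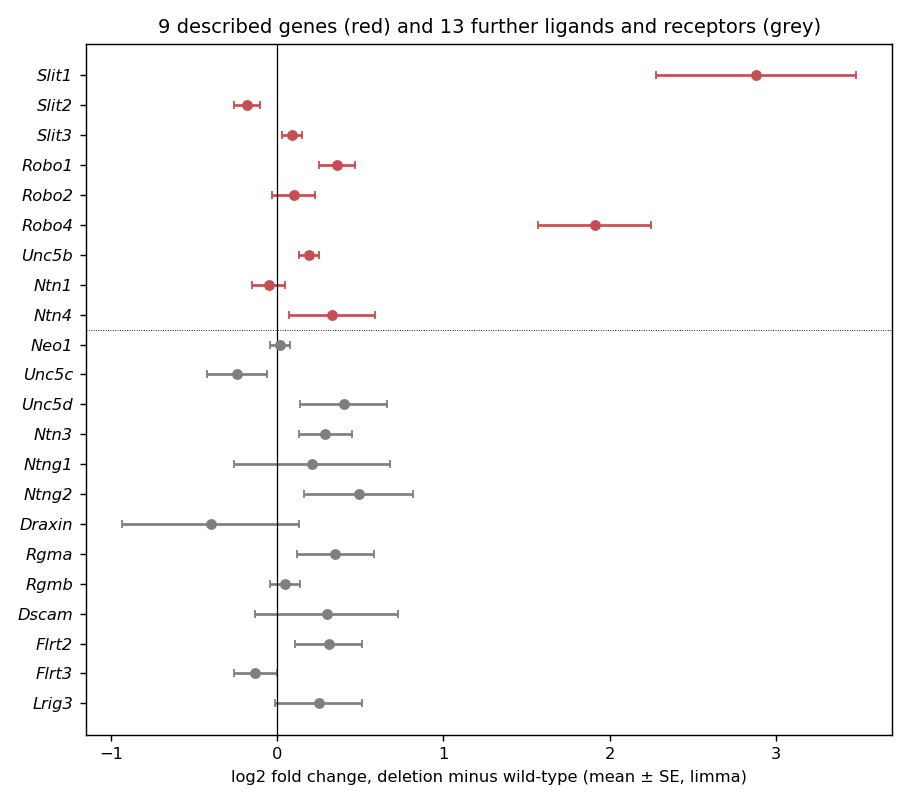
Log2 fold change, deletion minus wild-type, with its SE from limma over 6 libraries (horizontal axis), for the 9 guidance genes (red) and 13 further ligand and receptor genes (grey). Slit1 at 2.88 and Robo4 at 1.91 lie far to the right of the other 20, which lie between −0.40 and 0.49.

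Upstream sequence is shown for Robo4 and Unc5b, the endothelial receptors of the set, because Hand2 and its partners bind E-boxes and the motif can be looked for there. RefSeq promoter windows were matched for 7 of the 9 genes, not for Slit1 and Ntn1. The stretches below, on build GRCm38.p6 and not on the GRCm39 build of the counts, end at the base before the annotated gene start. They run 5′ to 3′ on the gene's strand, chr9:37401722-37401901 (plus strand) for Robo4 and chr10:60831582-60831831 (minus strand) for Unc5b, and capitals mark the E-box CANNTG, searched on both strands.
Robo4: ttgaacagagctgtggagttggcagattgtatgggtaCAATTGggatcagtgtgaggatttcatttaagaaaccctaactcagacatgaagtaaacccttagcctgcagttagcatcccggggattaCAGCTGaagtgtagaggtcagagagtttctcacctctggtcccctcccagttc
Unc5b: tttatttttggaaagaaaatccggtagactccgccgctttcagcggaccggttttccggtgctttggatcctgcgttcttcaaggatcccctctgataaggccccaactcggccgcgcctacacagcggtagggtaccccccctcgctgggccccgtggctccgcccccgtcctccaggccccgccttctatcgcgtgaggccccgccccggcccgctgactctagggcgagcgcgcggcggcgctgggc

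The Robo4 stretch of 180 bases held 2 E-boxes. Of 32851 promoter windows 55.5% held at least 1 in the first 180 bases of the window, which need not end at the gene start. The Unc5b stretch of 250 bases held 0, against 66.2% of windows with at least 1 in the first 250 bases of the window. CATCTG, a narrower form of the E-box, was in neither stretch and in 10.8% and 14.4% of windows. GATA was matched 0 times for Robo4 and 2 times for Unc5b (45.7% and 53.6% of windows), and TTCC, the reverse complement of the ETS core, 0 and 2 times (86.6% and 93.4%). These are matches of letters in short windows, in which no binding was measured.

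Levels can be set against each other only per length. In wild-type hearts Unc5b led with 960 ± 22.6 normalized counts per kb (SD, n = 3), followed by Ntn1 at 387 ± 46.0, Slit3 at 387 ± 9.95 and Robo1 at 186 ± 25.9. Slit2 at 96.7 ± 7.33 and Robo2 at 59.1 ± 9.95 came next. Robo4 at 6.52 ± 3.90, Ntn4 at 5.87 ± 0.768 and Slit1 at 1.91 ± 1.46 were the lowest. Ntn1 and Slit3 could not be ranked beyond their spread, nor could Robo4 and Ntn4, while all other neighbours in this order had separate ranges.

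In deletion hearts the order was the same for Unc5b (1099 ± 36.4 normalized counts per kb), Robo1 (239 ± 25.1), Slit2 (85.4 ± 3.62) and Robo2 (62.7 ± 4.96). Slit3 (412 ± 20.9) stood just above Ntn1 (373 ± 31.8), with ranges of 399 to 436 and 337 to 397. At the bottom Robo4 (22.7 ± 0.821) and Slit1 (11.6 ± 0.785) were above Ntn4 (7.45 ± 0.837), so Slit1 moved from the ninth to the eighth place. The order, though not the levels, was the same when the summed length of all annotated exons replaced the longest transcript. Slit1 and Robo4 thus remained minor transcripts next to Slit3, Robo1 and Unc5b in the deletion as well.

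Other genes of the pathway were taken from lists of known members. Of 18 further ligands and receptors, 13 were measured. None of the 13 passed the threshold in limma, 0 had an unadjusted p under 0.05, and edgeR and DESeq2 also called 0. Their median log2 fold change was 0.25, against −0.0073 over all genes, and 0 of 13 had groups without overlap, against 27.4% of all genes. Neo1, the gene of the netrin receptor neogenin, averaged 3932 ± 192 and 3992 ± 94.9 normalized counts (SD, n = 3) in wild-type and deletion, a log2 fold change of 0.02 (SE 0.06). Flrt2 and Flrt3, genes of adhesion proteins that bind Unc5 receptors, had log2 fold changes of 0.31 (SE 0.20) and −0.13 (SE 0.13).

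Of 38 co-receptor, heparan sulfate and cytoplasmic partner genes, all measured, 1 rose in limma, 0 fell and 37 did not pass, with a median log2 fold change of 0.05. The one that rose was Sdc4, the gene of a heparan sulfate proteoglycan of focal adhesions. Sdc4 had 320, 384 and 348 normalized counts in wild-type and 527, 465 and 535 in deletion libraries. No deletion library came near the wild-type range, and limma gave a log2 fold change of 0.54 (SE 0.10) with an adjusted p = 0.0274. Sdc4 did not pass without wild-type replicate 3, without any 1 of the deletion libraries, or with the replicate number as a block. In each of these settings limma also called fewer genes in all.

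The 3 most abundant of the other partner genes did not pass in limma. Dag1, the gene of dystroglycan, which binds Slits in the matrix, averaged 14224 ± 821 and 17360 ± 127 normalized counts (SD, n = 3) in wild-type and deletion, and limma gave 0.29 (adjusted p = 0.0559). Dag1 was called by DESeq2, after quantile normalization and without wild-type replicate 1, and not by edgeR. The small GTPase genes Cdc42 and Rhoa, on which Robo signals converge, had log2 fold changes of −0.18 (SE 0.07) and −0.16 (SE 0.07). Hs6st1, an enzyme gene of heparan sulfate sulfation named after its values were seen, had 0.29 (adjusted p = 0.0525, limma) and was called by edgeR and DESeq2. Of the 38 genes, 17 had groups without overlap, 11 higher and 6 lower in the deletion, against 27.4% of all genes. An unadjusted p under 0.05 was found for 13 of the 38, and for 3281 of the 15330 genes.

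**Figure D3:**
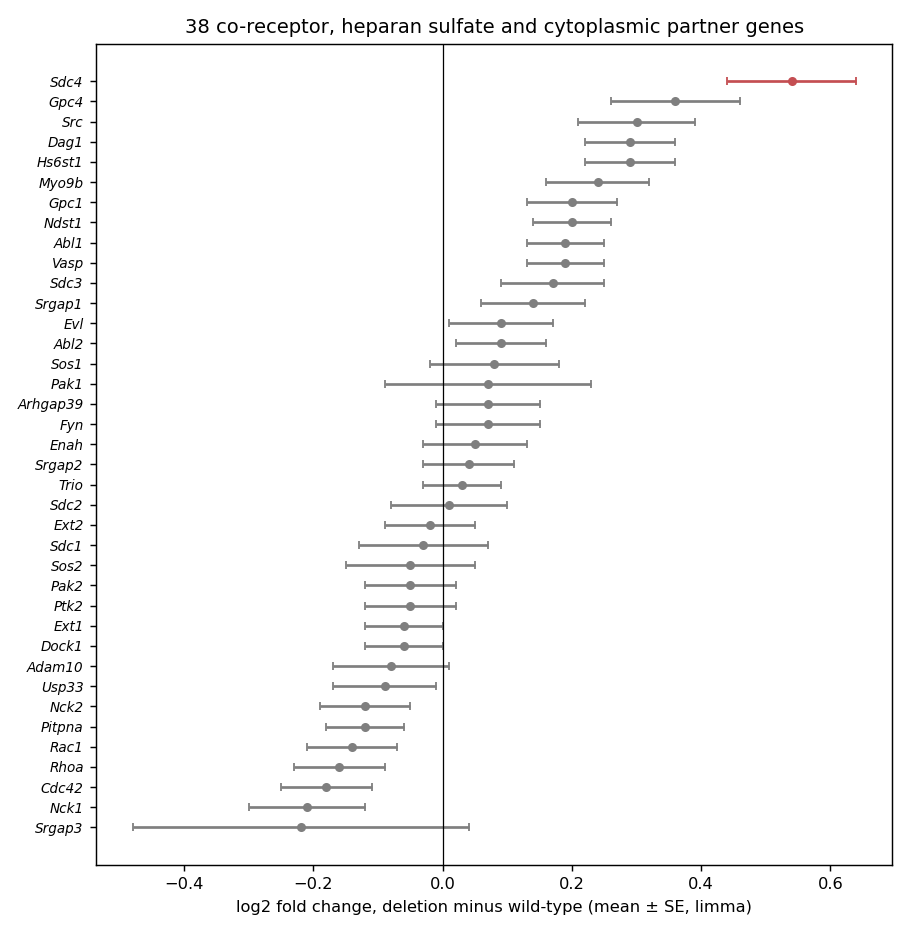
Log2 fold change, deletion minus wild-type, with its SE from limma (horizontal axis), for 38 co-receptor, heparan sulfate and cytoplasmic partner genes in order of their value. Sdc4 (red, 0.54) is the gene past the threshold, and the other 37 lie between −0.22 and 0.36.

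Robo4 and Unc5b are known as endothelial receptors, so markers of that cell type were set beside them. Which cells carried their transcripts in these hearts was not measured. The summed level of 18 endothelial and endocardial genes ranged from 32632 to 35468 normalized counts in wild-type and from 33086 to 34568 in deletion libraries, and none was at 0. Cdh5, the adhesion gene of endothelial junctions, had 4261 ± 259 and 4250 ± 109 normalized counts in wild-type and deletion (SD, n = 3). Per 1000 normalized counts of Cdh5, Robo4 stood at 12.0, 5.70 and 4.60 in the wild-type libraries against 24.6, 27.3 and 27.3 in the deletion. Unc5b stood at 1269, 1360 and 1345 against 1450, 1614 and 1494. Each of the 18 markers was then taken as denominator, a choice made after the values were seen. The rise of Robo4, known when it was chosen (log2 fold change 1.91), exceeded that of all 18 markers (at most 1.18). Its direction here was thus nearly fixed in advance. Robo4 was higher in every deletion than in every wild-type library relative to all 18, from which nothing is read. Unc5b was higher in this way relative to 8 of the 18, lower relative to 3 (Kdr, Cldn5 and Sox17) and overlapped relative to 7. Per 1000 of Kdr it stood at 1364, 1390 and 1339 in the wild-type libraries against 1200, 1232 and 1301 in the deletion, so its direction depended on the marker. Of the 18 genes, 2 rose (Kdr, a VEGF receptor gene, log2 fold change 0.33, and Cldn5, a tight junction gene, 1.18) and 2 fell (Tek, the angiopoietin receptor gene, −0.35, and Eng, −0.42). The highest of the others after Cdh5, Npr3 and Tie1, had 0.11 and −0.06. Groups without overlap were found for 11 of the 18, 7 higher and 4 lower in the deletion, against 27.4% of all genes. In limma 10 of the 18 had an unadjusted p under 0.05, as had 3281 of the 15330 genes. DESeq2 called 3 higher and 4 lower, and edgeR 2 and 2.

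Slit1 is best known from neural tissue, and dissected hearts can carry pharyngeal tissue, so markers of both were examined. Of 19 neural and neural crest genes 8 were measured, at a summed 467 to 575 normalized counts in wild-type and 493 to 641 in deletion libraries. In limma 0 were called, with 1 at an unadjusted p under 0.05, and edgeR and DESeq2 also called 0. Of 15 pharyngeal and foregut genes 14 were measured, with summed levels of 7784, 6132 and 5041 in the wild-type and 6285, 6713 and 6256 in the deletion libraries. Wild-type replicate 1, which had the highest wild-type levels of Slit1 and Robo4, had the highest sum. The deletion sums lay below it and within the wild-type range. Krt8 and Krt18 made up most of the sum in every library, so it mainly followed these genes. Krt8 held 3334, 3365 and 2603 of the wild-type sums, against 3366, 3317 and 2959 for the deletion. Krt18 held 2228, 1874 and 1494, against 1782, 1914 and 1733. The sum therefore cannot show whether scarcer pharyngeal genes were higher or lower. A sum without Krt8 and Krt18 was not taken. In this list 1 gene rose in limma, Tbx1, a T-box gene of the pharynx and second heart field, at 85.1, 32.9 and 19.2 normalized counts in wild-type and 136, 130 and 168 in deletion libraries (log2 fold change 1.90, adjusted p = 0.0495, limma). Tbx1 was not called by edgeR. The 3 most abundant others, Krt8, Krt18 and Isl1, which are also transcribed outside the pharynx, had log2 fold changes of 0.06, −0.03 and −0.28. Scarcer genes of pharyngeal epithelium, named after their values were seen, spread widely: Pax9 had 2.69 (SE 0.71, adjusted p = 0.0715, limma), Pax1 2.51 (SE 0.99), Sox2 1.6 (SE 0.61), Nkx2-1 1.01 (SE 1.12), Shh 0.85 (SE 0.90) and Pax8 −1.23 (SE 1.01). The list's remaining genes, also named after their values were seen, lay closer together. Foxe1 had 0.34 (SE 0.78), Epcam 0.24 (SE 0.47), Fgf8 0.24 (SE 0.16) and Cdh1 −0.37 (SE 0.35). Of the 14 genes 4 had an unadjusted p under 0.05, and the list's median was 0.29. The part of dissected pharyngeal tissue in the levels of Slit1 and Robo4 was not tested.

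Of the further marker lists, the cardiomyocyte and erythroid lists held no gene called in limma, while the cushion and epicardial lists did. Of 15 cardiomyocyte genes 0 were called in limma (4 at an unadjusted p under 0.05, 0 in edgeR and 3 in DESeq2), and their summed level was 994128 to 1148930 normalized counts in wild-type and 1046380 to 1147180 in deletion libraries. Of 9 measured primitive erythroid genes 0 were called by limma, edgeR or DESeq2, and 0 had an unadjusted p under 0.05. Their sum varied from 120935 to 354083 in wild-type and from 86026 to 459726 in deletion libraries. The part of blood content in the levels of Slit1 and Robo4 was not tested. Of 13 cushion mesenchyme genes 4 fell in limma (Twist1, Postn, Msx1 and Col3a1) and 0 rose, against 1.5% of all genes lower. Groups without overlap were found for 6 of the 13, 1 higher and 5 lower in the deletion, against 27.4% of all genes. Of 11 measured epicardial genes 2 rose (Krt19 and Gpm6a) and 0 fell, against 1.55% of all genes higher. Of these 11 genes 4 had groups without overlap, all higher in the deletion.

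The genes whose profile lay nearest to Slit1 and Robo4 were found by the root mean square difference of log2(normalized count + 1) over the 6 libraries, each gene centred on its own mean, without gene models and pseudogenes. Nearest to Robo4 were Tbx1 (0.217), Slc6a7, a proline transporter gene (0.266), and Chst8, a sulfotransferase gene (0.298). Each had its highest wild-type value in replicate 1, as Robo4 did, which follows from picking them by likeness over these same libraries. Nearest to Slit1 were Gfra1, a GDNF receptor gene (0.444), Tbx1 (0.680) and Pax1, a gene of pharyngeal pouches and sclerotome (0.741).

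Gfra1 had 20.4, 15.1 and 1.83 normalized counts in wild-type and 45.4, 76.1 and 118 in deletion libraries. As for Slit1, wild-type replicate 3 was by far the lowest, at the same value, which stood for 2 reads. This match is of counts near 0 in 1 library, and Gfra1 was picked by likeness over these same libraries. Pax1 was listed at 0 in the same library, with 27.2 and 5.34 in the other wild-type libraries and 50.7, 30.6 and 19.4 in the deletion. Unlike Slit1, Pax1 overlapped between the groups. The difference between Slit1 and Robo4 themselves was 0.764. This measure includes the difference between the groups, by which Slit1 and Robo4 were chosen. Like Slit1, the genes Gfra1, Pax1, Slc6a7 and Chst8 had wild-type means below 15.4, the lowest mean of any gene listed. They reached that level only with their deletion libraries.

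**Figure D4:**
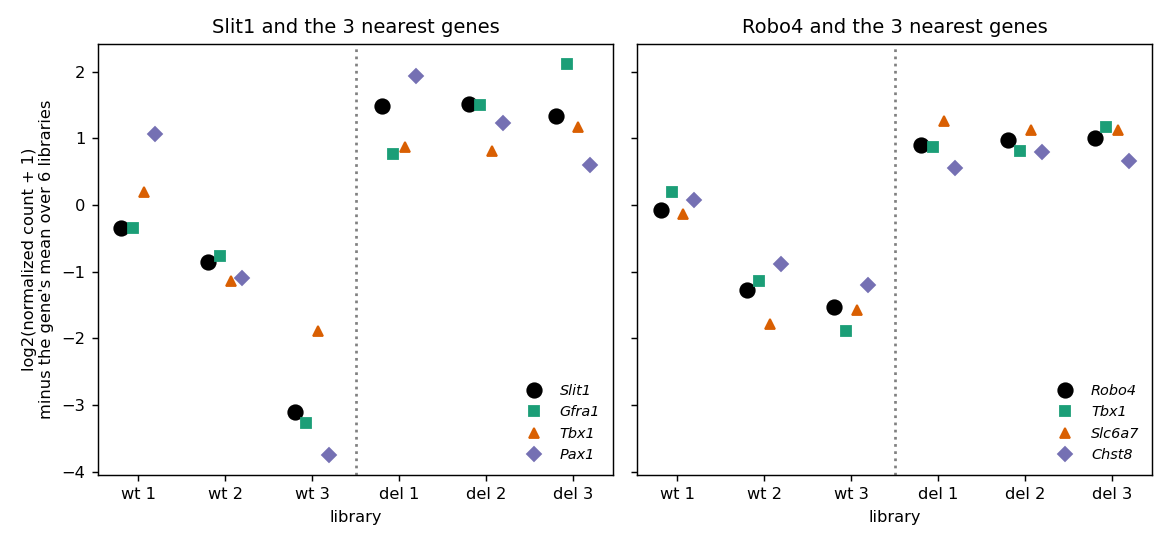
Log2(normalized count + 1) minus the gene's mean over 6 libraries (vertical axis) in wild-type (wt) and deletion (del) libraries, for Slit1 and Robo4 (black) and the 3 genes nearest to each. Tbx1 follows Robo4 with a root mean square difference of 0.217. Slit1, Gfra1 and Pax1 are low in wild-type replicate 3, at 1.83, 1.83 and 0 normalized counts, which are near 0 reads.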

How the data were processed

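Hearts gave 300 ng of RNA per library for a stranded mRNA kit and paired-end reads, per the labels' protocols. Tools named in the submitters' processing notes include DESeq2 1.30.1, STAR 2.7.9a and Subread 2.0.1 with featureCounts, and GRCm39 and mm39 as builds. The deposited signal is a normalized count per gene and library, made by the authors from reads and a size factor, as the file names and values show; 5 of the 6 files repeat 1 column each of the table used. All values were whole multiples of 1 read (100% within 0.01), so reads were recovered for counting intervals, edgeR 4.0.16 and DESeq2 1.42.0. The test was limma 3.58.1 with an intensity trend in R 4.3.3, two-sided, on log2 values with a pseudocount of 1. Genes needed a mean of at least 10, which all 15330 had, and p-values were Benjamini-Hochberg adjusted over all of them, with a threshold of 0.05. The procedure was tested on simulated data. Lengths and GC content came from GENCODE M21 (GRCm38) for 96.9% of genes. Named genes were the 9 guidance genes, Hand2, from each list those past the threshold and up to 3 most abundant others, and the 3 nearest to Slit1 and Robo4. For the cardiomyocyte, erythroid, neural, cushion and epicardial lists mainly counts are given. Members and lists were chosen with earlier results of these data known. Alternatives covered the pseudocount, filter, scaling, trend, tool, replicate block, file assignment and each library left out.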

Additional observations from a re-analysis of the deposited data

Results flagged for a closer look

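Robo2 had log2 differences of opposite sign in the libraries labelled female and male. In the libraries labelled female, both deletion values (518 and 510 normalized counts) lay below both wild-type values (526 and 583), with a log2 difference of −0.11 (SE 0.11). The deletion values and the lower wild-type value lay inside each other's exact 95% counting intervals, 473 to 566 and 468 to 554 for the deletion libraries and 479 to 576 for the wild-type library. In the 1 male library of each group, the deletion value (587) lay above the wild-type value (415), with a log2 difference of 0.50. The difference between these labels was not tested, since each group had 1 male library.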

How the results depend on the processing

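Against 467 genes called in limma, 146 were called without an intensity trend, 1139 by DESeq2 and 35 in the female libraries alone (12 higher, 23 lower). With the replicate number as a block 206 were called (replicate block). Same-numbered libraries did not deviate together (correlations of −0.03, −0.12 and −0.14 over genes), so the numbers were not taken as pairs. Slit1 and Robo4 passed with the block and Sdc4 did not. Under the recorded file assignment limma called 0 genes, with 414 at an unadjusted p under 0.05, and the log2 fold change of Robo4 was −0.23. With each library left out 103 to 1161 genes were called. Of the 51 other guidance genes, where 1 was called, the count was 2 with equal medians, 3 after quantile normalization, 2 in edgeR, 4 in DESeq2, and 0 without an intensity trend, with the block, in the female libraries and under the recorded assignment (2 at an unadjusted p under 0.05). It was 0 to 4 with each library left out. The cause was not tested. Slit1 and Robo4 did not pass without an intensity trend or in the female libraries, where their log2 fold changes were 2.11 and 1.61. Slit1 and Ntn4 could not be fitted with a mean of at least 50. With a pseudocount of 10 Slit1 had 1.95 and Robo4 1.62. The planned comparison of protein sequences was not run. Few reads limit the precision for Slit1, Ntn4 and Robo4.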
